A study of Mus with 6 samples.

Results

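The 10 genes described here, which dividing cells switch on around mitosis, were compared between pancreatic tumors of obese and lean mice. They are *Mki67*, *Top2a*, *Ccnb1*, *Cdk1*, *Aurka*, *Aurkb*, *Plk1*, *Birc5*, *Bub1* and *Cdc20*, taken by their Ensembl identifiers as a list that was drawn up with earlier results of these data known. All 10 were among the 15646 genes of the count table, and all 10 were among the 14348 genes that passed the filter on low counts and were tested. The tumors were grown from KPC1199 cells, a mouse pancreatic ductal adenocarcinoma line, placed in the pancreas itself. The obese hosts were ob/ob mice, which carry a mutated leptin gene and overeat, and the lean hosts were wild-type (WT) mice. Each group gave 3 libraries of total RNA from bulk tumor tissue: obese 1, obese 3 and obese 4, and lean 1, lean 2 and lean 3. All tumors in the comparison came from the same implanted line, so its 2 groups differ in the host as far as the labels say. The age and sex of the mice are not stated in the sources used here, nor is it stated whether each library came from a separate mouse. The p-values therefore measure the spread between these libraries, which may in part be technical.

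A cell that enters mitosis activates the kinase Cdk1 by binding it to cyclin B1. Plk1 and the Aurora kinases then drive centrosome separation, spindle assembly and chromosome attachment. A checkpoint that includes Bub1 holds back the anaphase-promoting complex until every chromosome is attached, and Cdc20 is the activator through which that complex then marks cyclin B1 for destruction. Transcripts of these genes accumulate in G2 and M phase and are low in resting cells, which is why *Mki67* and *Top2a* serve as proliferation markers in tumors. Pancreatic tumors hold many cell types, and a bulk library cannot tell more dividing cells from more of these transcripts per dividing cell.

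Of the 10 genes, 7 rose in obese hosts (*Top2a*, *Aurka*, *Bub1*, *Plk1*, *Aurkb*, *Birc5* and *Mki67*), 0 fell, and 3 (*Ccnb1*, *Cdk1* and *Cdc20*) did not pass the test (edgeR quasi-likelihood test; p adjusted by Benjamini-Hochberg across the 14348 genes, called when under 0.05). Across the whole table, 10.3% of genes were called higher and 10.6% lower by the same rule, so that 20.8% were called in either direction. Among the 7225 genes whose mean level lay within the range of the 10 genes, 11.6% were called higher. The fitted change was positive for all 10, between 1.24-fold and 1.90-fold, with a median log2 fold change of 0.56 where the median of all genes was 0.01. The groups did not overlap for 8 of the 10, all higher in obese hosts, where 20.3% of all genes were higher without overlap. At an unadjusted p under 0.05, 8 were higher, where 18.2% of all genes were, and 0 were lower; DESeq2 and limma-voom also called 0 lower. The count of 7 varied when 1 library was left out. Leaving out obese 1, obese 3 or obese 4 gave 1, 5 or 7. With lean 1, lean 2 or lean 3 left out it was 6, 2 or 1. Each such fit also had 1 library fewer, and why calls were lost was not tested. The calls over all genes, 2991 with the 6 libraries, changed as well. They numbered 1461, 3066 or 1956 on leaving out obese 1, obese 3 or obese 4, and 2624, 1179 or 1541 on leaving out lean 1, lean 2 or lean 3. The fitted changes of the 10 genes were positive in each of these fits.

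Library totals lay between 7122533 and 8521244 counts and showed no separation by host (two-sided exact permutation test, p = 0.9; the smallest p for 3 against 3 is 0.1). The 10 genes had between 120 and 5313 counts in a library. Counting error alone was 1.90% to 9.13% of the smallest count of each gene, and the spread between libraries of a group was mostly wider, with a coefficient of variation of 10.5% to 20.7% among obese and 5.61% to 19.6% among lean tumors. Levels are given as CPM, that is, counts relative to library size, after scaling by TMM, which adjusts for differences in library composition. CPM is not divided by transcript length and does not rank the genes against each other. In principal components of all genes, the first component, with 54.1% of the variance, separated the groups. Obese libraries lay at -43.6 to -29.0 on it and lean ones at 25.6 to 46.0. The second component, with 15.0% of the variance, set obese 3 apart from the other 5 libraries.

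**Figure D1:**
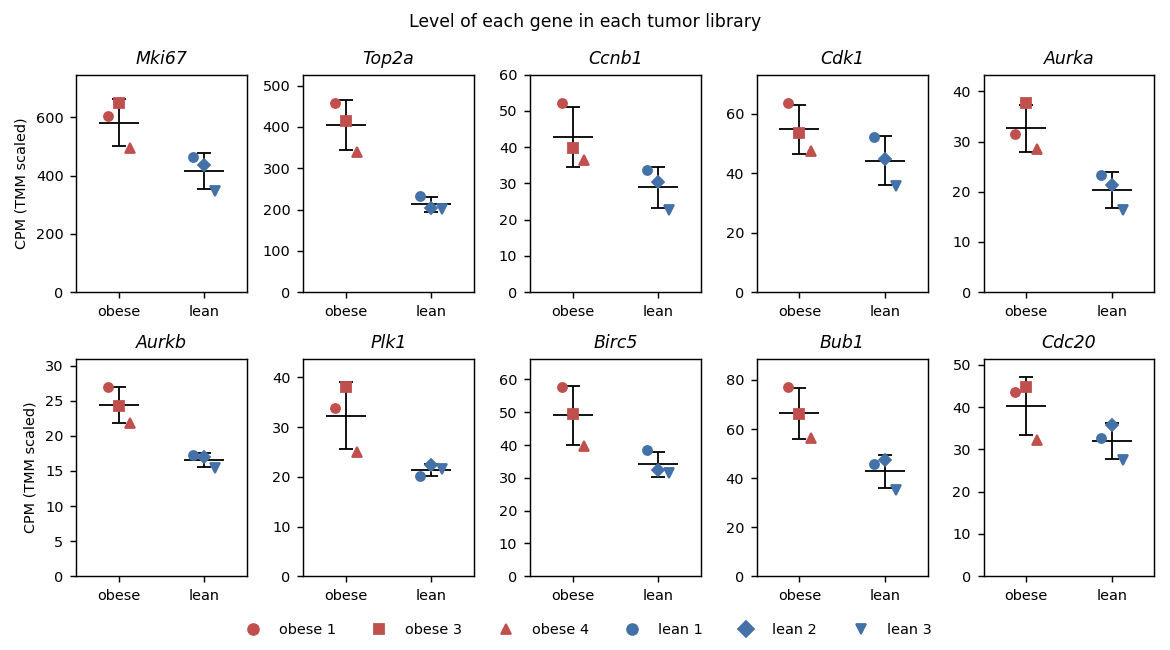
Level of each of the 10 genes in TMM-scaled CPM (vertical axis, starting at 0), with 1 point per tumor library, obese at the left and lean at the right of each panel; the horizontal bar is the group mean and the whiskers are the SD (n = 3). The obese points lie above every lean point in 8 panels, and the groups overlap for *Cdk1* and *Cdc20*.

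*Top2a* encodes topoisomerase II alpha, the enzyme that untangles sister chromatids before they separate (ENSMUSG00000020914.17, chr11:98992947-99024199). It had 458, 415 and 340 CPM in obese 1, obese 3 and obese 4, against 232, 203 and 202 CPM in lean 1, lean 2 and lean 3. The groups did not overlap, and the lowest obese library stood at 1.47 times the highest lean one. Its level was 404 ± 59.7 CPM in obese and 212 ± 17.1 CPM in lean tumors (SD, n = 3 each). The change of 1.90-fold (95% interval 1.58 to 2.29; log2 0.93, SE 0.12) was the largest of the 10 genes and lay above that of 94.3% of all genes tested (edgeR adjusted p = 0.00194).

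*Mki67* encodes Ki-67, a protein that coats mitotic chromosomes and whose staining is the usual measure of proliferation in tumor sections (ENSMUSG00000031004.8, chr7:135689784-135716450). It was measured at 604, 650 and 494 CPM in obese 1, obese 3 and obese 4, and at 464, 436 and 347 CPM in lean 1, lean 2 and lean 3. Every obese library was above every lean one, but obese 4 exceeded lean 1 by a factor of only 1.07. The means were 583 ± 79.9 CPM in obese and 416 ± 61.0 CPM in lean tumors (SD, n = 3 each), a 1.40-fold difference (95% interval 1.14 to 1.72; log2 0.49, SE 0.13; edgeR adjusted p = 0.0283). The fitted change of *Mki67* was smaller than that of *Top2a*. Within each library, *Top2a* had 0.759, 0.638 and 0.688 counts per count of *Mki67* in obese 1, obese 3 and obese 4, against 0.5001, 0.4664 and 0.5813 in lean 1, lean 2 and lean 3. This ratio does not depend on the scaling of libraries. It was higher in every obese library than in any lean one (exact permutation test, two-sided, p = 0.1, the smallest possible, and p = 0.167 adjusted over 5 ratios of gene pairs). The pairs were chosen with the values known, so these p-values only describe the separation.

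The kinase at the entry to mitosis and its cyclin did not pass the test. *Cdk1* (ENSMUSG00000019942.13, chr10:69335146-69352912) had 63.7, 53.5 and 47.4 CPM in obese 1, obese 3 and obese 4, against 52.2, 44.7 and 35.8 CPM in lean 1, lean 2 and lean 3. The groups overlapped, since obese 4 was below lean 1, and *Cdk1* had the smallest fitted change of the 10 genes. At 54.9 ± 8.21 CPM in obese and 44.3 ± 8.23 CPM in lean tumors (SD, n = 3 each), it differed 1.24-fold, with a 95% interval of 0.968 to 1.59 (log2 0.31, SE 0.16; edgeR adjusted p = 0.193). That interval contains both no change and the changes fitted for *Mki67* and *Bub1*.

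*Ccnb1* encodes cyclin B1 (ENSMUSG00000041431.16, chr13:100778739-100786486). Its level was 52.2, 39.8 and 36.4 CPM in obese 1, obese 3 and obese 4, and 33.7, 30.2 and 22.7 CPM in lean 1, lean 2 and lean 3. The groups did not overlap, but the spread within each was wide, at 42.8 ± 8.29 CPM in obese and 28.9 ± 5.66 CPM in lean tumors (SD, n = 3 each). The 1.48-fold difference (95% interval 1.12 to 1.96; log2 0.57, SE 0.18) lay just outside the threshold, with an edgeR adjusted p = 0.0505. It was past the threshold with DESeq2 and with limma-voom. Cyclin B1 counts per *Cdk1* count were 0.820, 0.744 and 0.768 in obese 1, obese 3 and obese 4, against 0.645, 0.676 and 0.633 in lean 1, lean 2 and lean 3, again without overlap (exact permutation test, two-sided, p = 0.1; adjusted p = 0.167).

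Both Aurora kinases rose in obese hosts. *Aurka* acts at centrosomes and spindle poles (ENSMUSG00000027496.15, chr2:172356190-172370886). It had 31.5, 37.7 and 28.6 CPM in obese 1, obese 3 and obese 4, against 23.4, 21.3 and 16.4 CPM in lean 1, lean 2 and lean 3. No library overlapped, with obese 4 at 1.22 times lean 1. The mean was 32.6 ± 4.63 CPM in obese and 20.4 ± 3.59 CPM in lean tumors (SD, n = 3 each), 1.60-fold apart (95% interval 1.22 to 2.09; log2 0.68, SE 0.18; edgeR adjusted p = 0.0224). This was the change next in size to that of *Top2a*.

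*Aurkb* is the kinase of the chromosomal passenger complex, which corrects faulty attachments at centromeres and later directs cytokinesis (ENSMUSG00000020897.12, chr11:69045624-69051664). Its values were 26.97, 24.22 and 21.84 CPM in obese 1, obese 3 and obese 4, and 17.2, 17.0 and 15.4 CPM in lean 1, lean 2 and lean 3. The 3 lean libraries lay close together and the lowest obese one was 1.27 times the highest of them. Their coefficient of variation, 6.07%, was below the counting error of the smallest count, 9.13%, so it does not show a low spread between tumors. *Aurkb* averaged 24.3 ± 2.56 CPM in obese and 16.55 ± 1.004 CPM in lean tumors (SD, n = 3 each), a 1.47-fold difference (95% interval 1.16 to 1.87; log2 0.56, SE 0.16; edgeR adjusted p = 0.0307). Counts of *Aurkb* per count of *Aurka* averaged 0.754 ± 0.106 in obese and 0.825 ± 0.104 in lean tumors (SD, n = 3 each), with overlapping libraries (exact permutation test, two-sided, p = 0.5; adjusted p = 0.625).

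*Birc5* encodes survivin, the small subunit that brings the chromosomal passenger complex to the centromere and that also belongs to a family of apoptosis inhibitors (ENSMUSG00000017716.15, chr11:117849237-117855743). It stood at 57.7, 49.5 and 39.8 CPM in obese 1, obese 3 and obese 4, against 38.3, 32.5 and 31.4 CPM in lean 1, lean 2 and lean 3. The groups were separated by the narrowest margin of the 8 genes without overlap, obese 4 being 1.04 times lean 1. Means of 49.0 ± 8.94 CPM in obese and 34.1 ± 3.72 CPM in lean tumors (SD, n = 3 each) gave a 1.44-fold change (95% interval 1.13 to 1.83; log2 0.52, SE 0.16; edgeR adjusted p = 0.0381). The ratio of *Birc5* to its partner *Aurkb* was 2.003 ± 0.162 in obese and 2.059 ± 0.160 in lean tumors (SD, n = 3 each; exact permutation test, two-sided, p = 0.8; adjusted p = 0.8).

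*Plk1*, polo-like kinase 1, promotes mitotic entry, centrosome maturation and cytokinesis (ENSMUSG00000030867.7, chr7:122159435-122169884). It had 33.88, 38.05 and 24.98 CPM in obese 1, obese 3 and obese 4, against 20.1, 22.4 and 21.5 CPM in lean 1, lean 2 and lean 3. The lean libraries were nearly level, whereas obese 4 lay well below the other 2 obese libraries and at 1.11 times the highest lean one. The lean coefficient of variation, 5.61%, was below the counting error of the smallest count, 7.96%. The 3 lean values therefore do not show a low spread between tumors. At 32.3 ± 6.68 CPM in obese and 21.34 ± 1.198 CPM in lean tumors (SD, n = 3 each), *Plk1* rose 1.51-fold (95% interval 1.16 to 1.98; log2 0.60, SE 0.17; edgeR adjusted p = 0.0342).

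Of the pair that sets the timing of anaphase, the checkpoint kinase rose and the activator did not pass the test. *Bub1*, a kinase of the spindle checkpoint that sits at kinetochores (ENSMUSG00000027379.13, chr2:127800197-127831859), had 77.1, 66.1 and 56.4 CPM in obese 1, obese 3 and obese 4, against 45.8, 47.4 and 35.0 CPM in lean 1, lean 2 and lean 3. Each obese library exceeded each lean one, by a factor of at least 1.19. *Bub1* averaged 66.5 ± 10.4 CPM in obese and 42.8 ± 6.74 CPM in lean tumors (SD, n = 3 each), a 1.56-fold difference (95% interval 1.23 to 1.97; log2 0.64, SE 0.15; edgeR adjusted p = 0.0174).

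*Cdc20* encodes the activator of the anaphase-promoting complex that the checkpoint holds in check (ENSMUSG00000006398.15, chr4:118432901-118437343). Its level was 43.5, 44.8 and 32.3 CPM in obese 1, obese 3 and obese 4, and 32.8, 35.8 and 27.4 CPM in lean 1, lean 2 and lean 3. Obese 4 was below lean 1 and lean 2, so the groups overlapped. The means were 40.2 ± 6.84 CPM in obese and 32.0 ± 4.24 CPM in lean tumors (SD, n = 3 each), 1.26-fold apart with a 95% interval of 0.980 to 1.62 (log2 0.33, SE 0.16; edgeR adjusted p = 0.170). *Cdc20* had 0.564, 0.678 and 0.574 counts per count of *Bub1* in obese 1, obese 3 and obese 4, against 0.715, 0.754 and 0.782 in lean 1, lean 2 and lean 3. The ratio was thus lower in every obese library than in any lean one (exact permutation test, two-sided, p = 0.1; adjusted p = 0.167). The 5 gene pairs set against each other here were chosen with the values known, so the p-values of their ratios are descriptive.

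**Figure D2:**
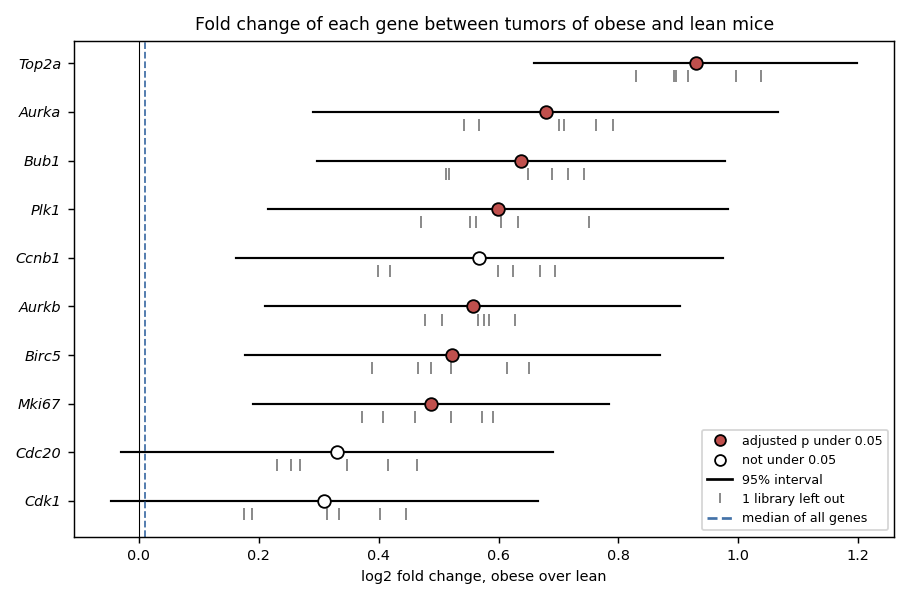
Log2 fold change, obese over lean, of each of the 10 genes (horizontal axis), with its 95% interval as a line; filled points passed the edgeR test at an adjusted p under 0.05, grey ticks are the fits with 1 library left out, and the dashed line is the median of all genes tested. All points and all ticks lie above 0, from 0.18 to 1.04 for the ticks, and the intervals of *Cdk1* and *Cdc20* reach below 0.

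Some of these loci share sequence with other genes, and the strand handling of the counts is not given in the sources used here. In the RefSeq annotation of GRCm38.p6, *Aurka* overlaps *Cstf1* by 242 bases and *Cdc20* overlaps *Elovl1* by 53 bases. *Top2a* overlaps a snoRNA gene by 122 bases. Whether reads from these stretches were kept apart from those of the partner is not known. The other 7 genes overlap no gene in that annotation. It also lists the pseudogenes *Ccnb1-ps* and *Aurkb-ps*, whose reads may not be separable from those of *Ccnb1* and *Aurkb*.

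The order of the libraries was much alike from gene to gene. Obese 1 and obese 3 held the highest 2 places for every gene, obese 1 being first for 6 genes and obese 3 for 4. Obese 4 had the lowest obese value of all 10 genes, and it ranked next, above every lean library, for 8 of them. Lean 3 was the lowest library for 9 genes, the exception being *Plk1*, which was lowest in lean 1.

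Relative to the lean mean of each gene, the 10 genes averaged 1.64-fold in obese 1, 1.55-fold in obese 3 and 1.25-fold in obese 4, against 1.10-fold in lean 1, 1.04-fold in lean 2 and 0.876-fold in lean 3. Obese 4 was therefore nearer to lean 1 than to obese 1, and the spread within the obese group was of the same order as the distance between the groups. All 10 genes were above their lean mean in each obese library, whereas 9 were in lean 1, 8 in lean 2 and 1 in lean 3.

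Set against the average of the 10 genes in the same library, *Top2a* was higher by 0.34 to 0.40 on the log2 scale in the obese libraries and between -0.12 and 0.12 in the lean ones. *Cdk1* and *Cdc20* lay on the other side. *Cdk1* was at -0.34 to -0.17 in the obese libraries and -0.10 to 0.12 in the lean ones, and *Cdc20* was at -0.30 to -0.14 in the obese libraries and -0.09 to 0.11 in the lean ones. The other 7 genes overlapped between the groups on this scale. These differences are a description of 6 libraries and were not tested.

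**Figure D3:**
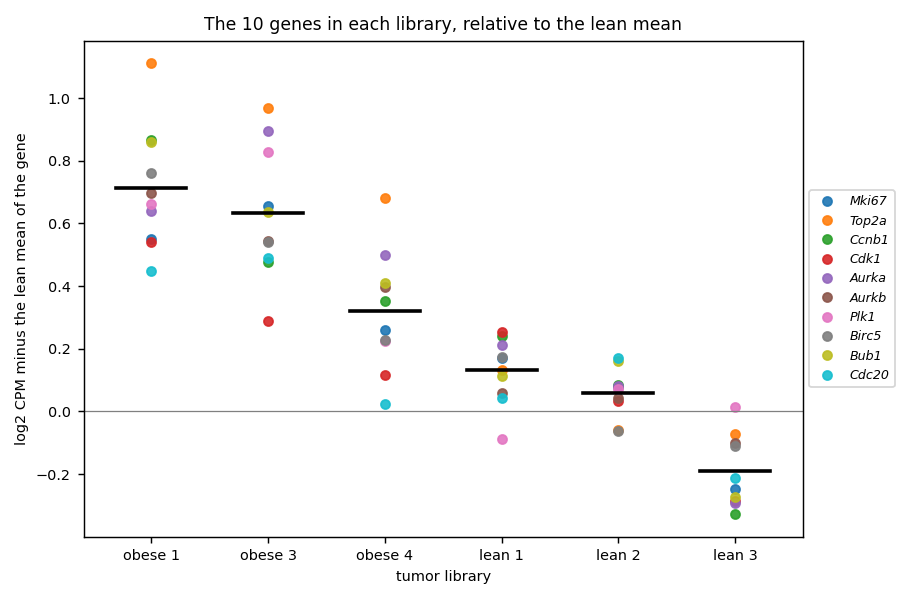
Log2 CPM of each gene minus the mean of that gene over the 3 lean libraries (vertical axis), by tumor library, obese at the left; each colored point is 1 gene and the black bar is the mean of the 10 genes. The bars stand at 0.71, 0.63 and 0.32 in obese 1, obese 3 and obese 4, against 0.13, 0.06 and -0.19 in lean 1, lean 2 and lean 3, and *Top2a* is the highest point in each obese library.

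Other genes of the G2 and M phases were examined through a list keyed by Ensembl identifier, taken from the marker pairs for mouse cells in the scran package. It holds genes that are the higher partner of a pair in G2/M and in no other phase, without the 10 genes. Such a pair gives the order of its genes in a phase, not a high level of either. The S and G1 lists below were made alike. Of the 28 genes of the G2/M list, 26 were tested, of which 6 rose in obese hosts, 1 fell and 19 did not pass the test (edgeR, adjusted p under 0.05). These are 23.1% higher and 3.85% lower, beside 10.3% and 10.6% of all genes. With total counts in place of TMM scaling the split was 8 higher and 0 lower, beside 1797 higher and 1170 lower over all genes. The median log2 fold change of the list was 0.33, between those of the 10 genes (0.56) and of all genes (0.01). Its mean log2 CPM was 5.27 to 5.33 in the obese and 4.98 to 5.12 in the lean libraries, which do not overlap. Without obese 1 the number called in this list was 1, and it was 3 without lean 2 and 3 without lean 3. It was 7 without obese 4, and in these fits every call was higher. Without obese 3 it was 10, with 8 higher and 2 lower. Without lean 1 it was 7, with 5 higher and 2 lower.

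The deposited table does not pair identifiers with symbols, so these genes are given by identifier. ENSMUSG00000001403.13 had 55.5 ± 8.08 CPM in obese and 27.4 ± 4.98 CPM in lean tumors (SD, n = 3 each). Its log2 fold change was 1.01 (SE 0.16, edgeR adjusted p = 0.00369), beside 0.93 for *Top2a*. ENSMUSG00000027306.15 was at 53.6 ± 9.97 CPM in obese and 32.4 ± 5.40 CPM in lean tumors (SD, n = 3 each; log2 0.73, SE 0.17, edgeR adjusted p = 0.0159). The single gene that fell, ENSMUSG00000026510.10, had 41.5 ± 3.50 CPM in obese and 55.7 ± 5.69 CPM in lean tumors (SD, n = 3 each; log2 -0.42, SE 0.13, edgeR adjusted p = 0.0386).

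Of 35 S-phase genes tested, 5 rose and 3 fell, or 14.3% higher and 8.57% lower beside 10.3% and 10.6% of all genes, with a median log2 fold change of 0.07. Their mean log2 CPM was 4.71 to 4.93 in the obese and 4.76 to 4.78 in the lean libraries, which overlap. Of 11 G1 genes, 4 rose and 1 fell, or 36.4% higher and 9.09% lower, a larger share higher than in the G2/M list, although their median was -0.07. Their mean log2 CPM was 6.01 to 6.10 in the obese and 5.87 to 6.15 in the lean libraries. Whether the G2 and M list differs from the other lists was not tested.

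In the same marker pairs, the 10 genes are not equally tied to one phase. *Cdc20*, *Plk1*, *Aurkb* and *Aurka* are the higher partner in 125, 103, 71 and 58 G2/M pairs, while *Mki67* and *Bub1* have 14 each, *Birc5* 10 and *Ccnb1* 8. *Cdk1* has 41, and *Top2a* is in 0 pairs of any phase. The gene with the most G2/M pairs, *Cdc20*, was thus among the 3 that did not pass the test here. *Birc5* and *Bub1* are the higher partner in slightly more G1 pairs, 13 and 15, than G2/M pairs. *Mki67* has 7 G1 pairs as the higher partner, *Cdc20* has 2, *Cdk1* and *Aurkb* have 1 each, and the other 4 genes have 0. As the lower partner in G1 pairs, *Plk1* has 276, *Aurka* 247, *Aurkb* 118, *Mki67* 68, *Cdc20* 56 and *Cdk1* 31. *Ccnb1* has 9 of these, *Bub1* 8, and *Birc5* and *Top2a* 0. Pairs of the S phase are not given here.

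**Figure D4:**
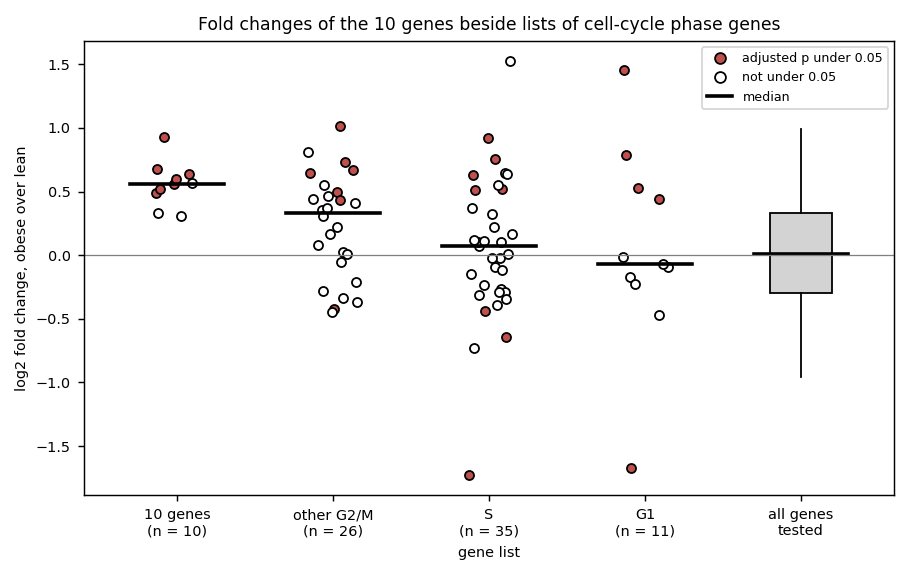
Log2 fold change, obese over lean (vertical axis), of the 10 genes and of the other G2/M, S and G1 genes from the marker pairs, with 1 point per gene, filled where the edgeR adjusted p was under 0.05; black bars are medians, and for all genes tested the box spans the 25th to 75th percentile and the line the 5th to 95th. The medians are 0.56, 0.33, 0.07 and -0.07 from left to right, and 0.01 for all genes.

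The changes of the 10 genes were small for 3 libraries a group. In counts simulated from these libraries for 14348 genes, with changes built in, the edgeR test recovered 14.9% of 67 genes with a 1.5-fold change. For 2-fold changes it recovered 51.6% of 64 genes, and for 4-fold changes 90.9% of 66. The simulation changed genes of all levels, and a far smaller share of them than the 20.8% called in the data. A smaller share makes the adjusted threshold harder to pass, so these recoveries may be too low for the 10 genes. The 3 genes that did not pass are not shown to be unchanged. Markers of tumor cells, leukocytes, fibroblasts and other cells could not be looked up, as 0 of the 15646 identifiers were paired with a symbol beyond the 10 genes. The part of cell composition in these differences was not tested.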

How the data were processed

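Total RNA of 6 bulk tumor libraries was depleted of ribosomal RNA before library construction, per the labels' protocols. The deposited file holds raw counts for each gene, 1 column per library, with 15646 versioned Ensembl identifiers and a lowest row sum of 11. CASAVA, STAR and Subread with the build GRCm38 were used, per the submitters' processing notes; how strands were handled, and which versions were run, is not stated in the sources used here. Titles starting with OB were taken as obese and those starting with ND as lean, and 0 columns were left unmapped. Differences were tested in R 4.3.3 with edgeR 4.0.16: its expression filter (minimum count 10, minimum total 15), which removed 1298 genes, TMM scaling, and the quasi-likelihood test without covariates over 14348 genes. The SE is the log2 fold change divided by the square root of F, and the 95% interval uses the fit's degrees of freedom. Log2 CPM used a prior count of 2. Pairs of libraries within a group differed by 7.56 to 15.1 times the sampling variance, so none was taken as a repeat count of the same library. This does not show that the libraries came from separate tumors or mice.

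The symbols of the 10 genes came with their identifiers, and coordinates were matched by symbol in RefSeq GRCm38.p6 (10 of 10). The 10 genes and the lists were chosen with earlier results of these data known. All 10 genes are named, with 2 genes that rose and the 1 that fell, by adjusted p, from the G2/M list (scran 1.30.0). The test was tested on simulated data. Alternatives used other scalings, filters, a block for the number in the title, a robust fit, limma-voom (limma 3.58.1), DESeq2 1.42.0, and each library left out. Promoter and protein motifs, and 13 lists fixed by symbol, were not analysed here.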

Additional observations from a re-analysis of the deposited data

How the results depend on the processing

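The sign of the change was kept for all 10 genes in all 15 alternatives, and *Top2a* was called in each of them (adjusted p 3.77e-09 to 0.0163). The number of the 10 genes called higher was 7 or 8 in the 9 alternatives of scaling, filter, test and block. The block fit among them drew the host effect from fewer libraries, as given below. *Ccnb1* was the gene gained with upper-quartile factors, total counts, DESeq2, limma-voom and the robust fit. Leaving out 1 library gave 1 to 7 of the 10 genes called higher and 0 called lower. It gave 1 to 10 of the other G2/M genes called in either direction, and 1179 to 3066 genes called in all. The median log2 fold change of the 10 genes was 0.47 without obese 1, 0.49 without lean 3, 0.54 without obese 3, 0.59 without lean 2, 0.60 without lean 1 and 0.66 without obese 4. *Mki67* lost its call in 4 of the 15 alternatives (adjusted p 0.00613 to 0.102), *Aurka* in 3 (0.00816 to 0.0797), *Bub1* in 2 (0.00199 to 0.0704), *Birc5* in 4 (0.0199 to 0.147), and *Plk1* and *Aurkb* in 5 each (0.0127 to 0.0970 and 0.0244 to 0.112). The cause of these lost calls was not tested.

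The titles of both groups share the numbers 1 and 3, and the deviations of like-numbered libraries from their group means correlated at 0.090 and 0.074, against -0.131 to 0.066 for unlike numbers, so the numbers are not shown to pair the samples. Lean 2 and obese 4 have no like-numbered library in the other group. With the number as a block, the host effect therefore came from obese 1, obese 3, lean 1 and lean 3 only. Obese 4, the lowest obese library for all 10 genes, thus did not bear on it. In that fit, 8 of the 10 genes were called higher (*Ccnb1* and *Cdc20* gained, *Aurkb* lost). Of the other G2/M genes, 8 were called higher and 0 lower, and 2087 genes were called in all. The promoter and protein motif results and the lists fixed by symbol were not run. The lowest count of the 10 genes was 120 (*Aurkb*), for which counting error is 9.13%; for most of the genes the spread between libraries was wider than counting error.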
